A study of Saccharomyces cerevisiae with 7 samples.

Results

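Yeast cells that overproduced SS-GFP, a green fluorescent protein sent to the endoplasmic reticulum (ER) by an N-terminal secretory signal, were compared with cells that overproduced GFP-Deg, which carries a C-terminal degron and is broken down by the proteasome. The comparison rested on 2 of the 7 arrays of the series, chosen by the construct named in their labels and not by any measured value, and it covered 6033 of the 6225 genes and other systematic names on the array. All cells were of the haploid *Saccharomyces cerevisiae* strain BY4741, carried the multicopy plasmid pTOW40836, marked with *URA3* and *leu2d*, and were collected in log phase from SC–Ura medium. SS-GFP was expressed from *PYK1pro*, the promoter of the pyruvate kinase gene, and GFP-Deg from *TDH3pro*, the promoter of a glyceraldehyde-3-phosphate dehydrogenase gene. The other 5 arrays, used below as a background, held an empty vector, GFP from *TDH3pro*, the misfolding GFPm3 and the mitochondrial MTS-GFP from *PYK1pro*, and the exported NES-GFP from *HXT7pro*. Because signal and promoter differ together, what belongs to the signal and what belongs to the promoter cannot be told apart.

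Proteins enter the secretory pathway through the ER translocon, and Hsp70 chaperones, thiol oxidoreductases and glycosylation enzymes of the ER lumen help them to fold. When unfolded proteins gather there, the sensor Ire1 splices the mRNA of the transcription factor Hac1, which raises the transcription of many of these genes, in what is called the unfolded protein response. Proteins with a degron are instead unfolded and cut by the 26S proteasome, a 20S core closed at its ends by 19S regulatory particles. The transcription factor Rpn4 drives the proteasome genes and is itself a rapidly degraded substrate of the proteasome, so that its protein rises when the proteasome is short.

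The level of a gene is given here as log2 of its signal relative to the 75th percentile of its array, so that 0 stands for a signal at that percentile, and levels are compared only within a gene. A difference is the SS-GFP level minus the GFP-Deg level on the log2 scale. Each construct was measured on 1 array, so the differences had no replicate check and no test was made. The precision of a value on its array was high, with a median standard error of the difference between spots of 0.03, but this leaves out the variation between cultures, labelling reactions and hybridizations. In RNA of whole cultures a difference in every cell and a difference in a fraction of the cells cannot be told apart. Both arrays lay on the same slide, as did the GFP array, while the other 4 arrays lay on a second slide. The 75th percentile was 4328 on the SS-GFP array and 3985 on the GFP-Deg array, 97.0% and 98.9% of their spots were well above background, and no spot was saturated.

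Most genes of protein folding in the ER were higher with SS-GFP, and most genes of the proteasome, of cytosolic chaperones and of a group of sorbitol and hexose genes were higher with GFP-Deg. Of the 6033 genes well above background on both arrays, 79 were more than 2-fold higher in SS-GFP (1.31%) and 141 were more than 2-fold higher in GFP-Deg (2.34%). Most genes differed little, and 5210 of them (86.4%) lay within 1.5-fold. The median difference was -0.06, the middle 50% of genes lay between -0.28 and 0.15, and the levels of both arrays had a Pearson correlation of 0.984 across genes, which are not independent replicates. The genes just inside the 2-fold threshold were *UBP11* toward SS-GFP and *RFA1* toward GFP-Deg, with differences of 1.0049 and -1.0003, and those just outside it had 0.9975 and -0.9990. Of 78 genes past the threshold that the rule for named genes chose, 16 were within 2-fold under at least 1 other scaling, background correction or choice of spots, among them *RPT1*, *SEM1*, *PRE6*, *UFD1*, *SSA2*, *JEM1*, *BAR1*, *GSY1*, *SPO22*, *PGU1* and *YOR289W*.

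**Figure D1:**
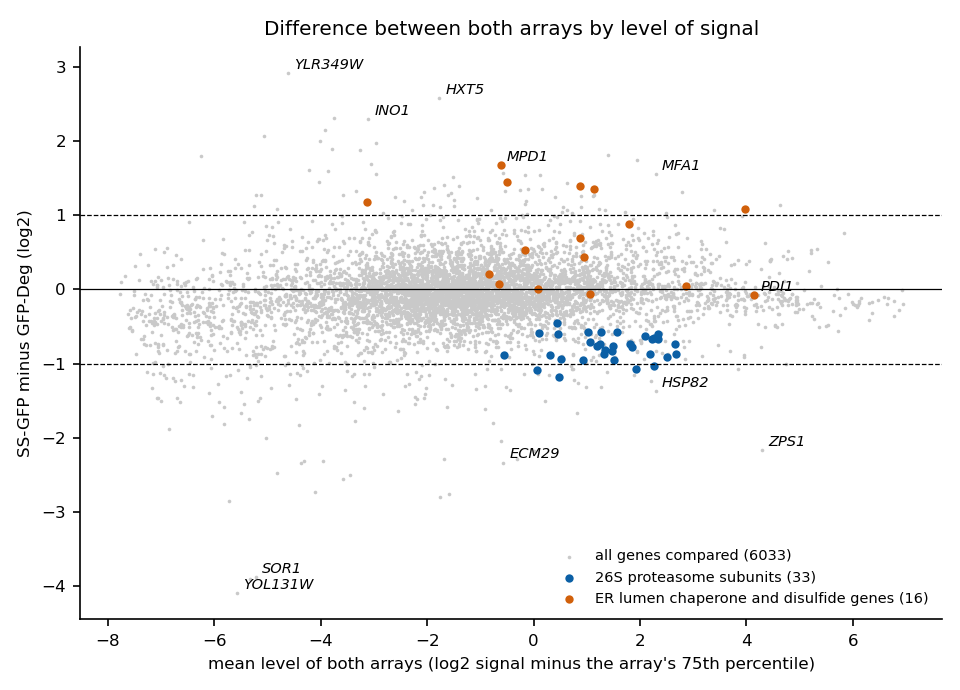
Difference between the SS-GFP and GFP-Deg arrays (y axis, log2) against the mean level of both arrays (x axis, log2 relative to the 75th percentile) for 6033 genes, each gene a point, with dashed lines at 2-fold. All 33 proteasome subunit genes (blue) lie below 0, 14 of the 16 ER lumen genes (orange) lie above it, and genes of low level spread more toward GFP-Deg.

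Genes with low signal leaned toward GFP-Deg. In the 1509 genes with the lowest mean level of both arrays the median difference was -0.17, with 24 genes over 2-fold in SS-GFP and 80 in GFP-Deg. In the 3 equal groups of genes above them the medians lay between -0.04 and -0.03, and the group of highest level held 25 genes over 2-fold in SS-GFP and 24 in GFP-Deg. A further 125 genes were well above background on the GFP-Deg array but not on the SS-GFP array, against 0 the other way. For 7 of them the bound on the fold exceeded 2, the highest being *YGL262W*, an uncharacterized open reading frame with a systematic name next to that of *COS12*, at least 3.48-fold higher in GFP-Deg. None of the 33 proteasome subunit genes lay among the 1509 genes of lowest level. The part that signal near background played in the excess was not tested.

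The other arrays give the place of both levels among all 7, which the choice of genes by their difference partly fixes. Of the 79 genes higher in SS-GFP, SS-GFP had the highest level of all 7 arrays for 37 and GFP-Deg the lowest for 34. Of the 141 genes higher in GFP-Deg, GFP-Deg was the highest of 7 for 109 and SS-GFP the lowest for 51. Among all 6033 genes compared, SS-GFP was the highest of 7 for 571 and GFP-Deg the lowest for 1014. GFP-Deg was the highest for 1243 of them and SS-GFP the lowest for 966. Against the GFP array of the same slide, which both comparisons share, 37 of the 79 genes were over 2-fold higher in SS-GFP and 9 were over 2-fold lower in GFP-Deg. Of the 141, 53 were over 2-fold higher in GFP-Deg than in GFP and 31 were over 2-fold lower in SS-GFP. For 33 of the 79 and 59 of the 141, both arrays were within 2-fold of GFP. Over all 6033 genes compared, 58 were over 2-fold higher in SS-GFP than in GFP and 45 were over 2-fold lower. For GFP-Deg against GFP these counts were 81 and 33, and for 5833 genes both arrays were within 2-fold of GFP.

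Subunit genes of the 26S proteasome differed in 1 direction. All 33 subunit genes were higher in GFP-Deg, with a median difference of -0.77 (1.70-fold) and a range from -0.45 to -1.18, while the median of all genes was -0.06. Only 4 of the 33 passed 2-fold, namely *RPT2* and *RPT1*, ATPases of the 19S base, *SEM1*, a small subunit of the 19S lid, and *PRE6*, a 20S alpha subunit. Of all genes compared, 2.34% passed 2-fold in that direction and 58.1% were higher in GFP-Deg. For all 33 genes the GFP-Deg level was the highest of the 7 arrays, and the SS-GFP level lay within the range of the 5 other arrays for 22 and was the lowest of 7 for 7. Among all 6033 genes compared, GFP-Deg was the highest of 7 for 1243. SS-GFP lay within the range of the 5 other arrays for 3985 of them and was the lowest for 966. Against GFP the median difference of the 33 genes was 0.83 in GFP-Deg and 0.07 in SS-GFP.

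The classes of subunits were alike. The median difference was -0.83 for the 7 alpha subunits, which form the outer rings of the core, and -0.74 for the 7 beta subunits of the inner rings, which hold the proteolytic sites. It was -0.91 for the 6 ATPases, which unfold substrates and open the core, and -0.68 for the 13 non-ATPase subunits, which bind and deubiquitinate them. The smallest difference was that of *RPN13*, a ubiquitin receptor, at -0.45.

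*RPT2* was at 1.07 in GFP-Deg and at -0.11 in SS-GFP, and no higher than 0.26 in the other 5 arrays, a difference of -1.18 (2.27-fold). *RPT6*, another ATPase of the base, was at 0.99 in GFP-Deg and at 0.05 in SS-GFP, and at -0.47 to 0.02 in the others, a difference of -0.94. In both genes the GFP-Deg array stood above all others, while the differences of SS-GFP from GFP were -0.11 and 0.09. *SEM1* was at 0.60 in GFP-Deg and at -0.49 in SS-GFP, and for *SEM1* as for *RPT2* the SS-GFP level was also the lowest of the 7 arrays.

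**Figure D2:**
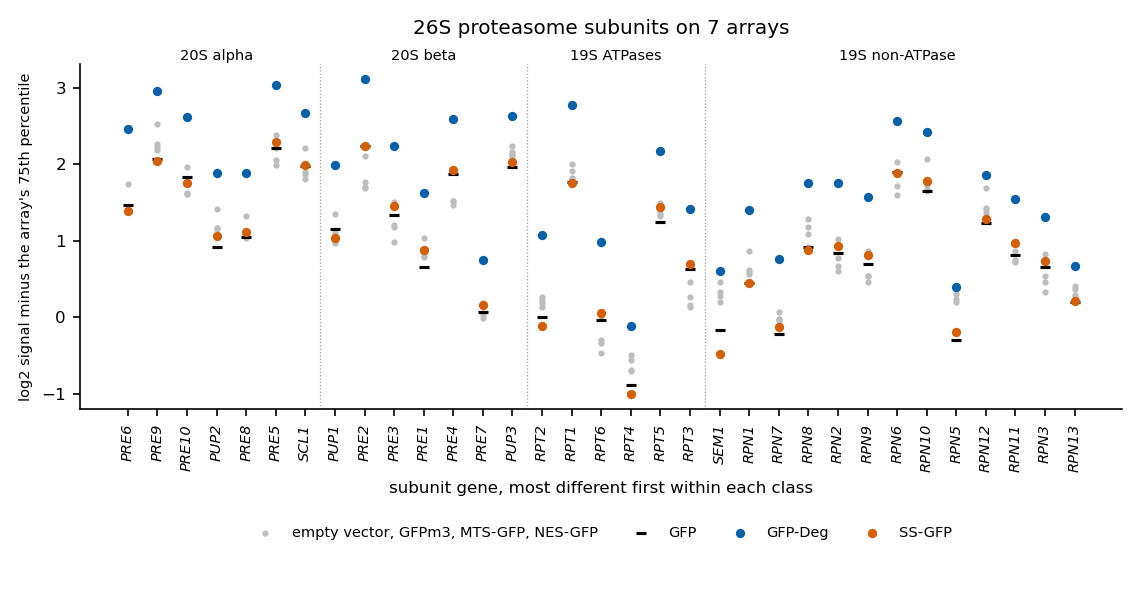
Levels (y axis, log2 relative to the 75th percentile of each array) of the 33 genes for subunits of the 26S proteasome (x axis) on 7 arrays, 1 array per construct and so without error bars. The GFP-Deg points (blue) are the highest for all 33 genes, and the SS-GFP points (orange) lie near those of GFP (black bars).

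Some factors that build or attach to the proteasome had larger differences than its subunits. Of 18 such genes, 4 were more than 2-fold higher in GFP-Deg, none was in SS-GFP, 11 were higher in GFP-Deg in all, and the median difference was -0.21. Over all genes compared, 2.34% were more than 2-fold higher in GFP-Deg. In all, 58.1% of them were higher in GFP-Deg, and the 11 of 18 lay near that share. *ECM29*, which tethers the regulatory particle to the core, was at 0.59 in GFP-Deg, at -1.74 in SS-GFP and between -1.74 and -1.12 in the other arrays, a 5.05-fold difference. The others were *CUZ1*, a zinc-finger protein that binds Cdc48 and the proteasome (2.83-fold), *BLM10*, an alternative activator of the core (2.44-fold), and *UMP1*, a maturation factor of the core (2.22-fold). These 4 genes each had their highest level of 7 arrays in GFP-Deg.

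Not all genes tied to the proteasome followed. Chaperones for base assembly such as *RPN14* and *NAS2* had differences of 0.22, and *TMA17*, another assembly factor, had 0.58 and was at its lowest of 7 arrays in GFP-Deg. *RPN4* itself was at 0.13 in SS-GFP and 0.21 in GFP-Deg, both below the other 5 arrays, which ranged from 0.38 to 1.29. The level of *RPN4* mRNA thus differed by -0.08, and the protein was not measured. *DOC1*, a subunit of the anaphase-promoting complex that helps it to bind substrates, was 3.11-fold higher in GFP-Deg, with a level of -1.73 against -3.37 in SS-GFP and -4.59 to -3.32 in the other arrays.

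Of 24 genes of ubiquitin conjugation and delivery, 20 were higher in GFP-Deg, with a median of -0.21. Over all genes compared, 58.1% were higher in GFP-Deg and 2.34% were so by more than 2-fold. The 2 over 2-fold were genes for shuttle factors, which bring tagged proteins to the proteasome, namely *DDI1* (2.40-fold) and *DSK2* (2.23-fold). The third shuttle gene, *RAD23*, had a difference of -0.95, with its GFP-Deg level of 1.40 above the 0.01 to 0.51 of the other 5 arrays. *UBA1*, the ubiquitin-activating enzyme, had -0.87, whereas the ubiquitin ligase gene *HUL4* had 0.73. The DNA repair gene *MAG1*, a 3-methyladenine glycosylase next to *DDI1*, was 3.48-fold higher in GFP-Deg, at 0.13 against -1.67 in SS-GFP and -1.29 to -0.85 in the others.

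The segregase Cdc48, which extracts ubiquitinated proteins, showed the same direction. Of its 14 genes, 13 were higher in GFP-Deg, where 58.1% of all genes were, and the median was -0.34. *UFD1*, a substrate-recruiting cofactor, was 2.10-fold higher in GFP-Deg, at -0.08 against -1.15. *CDC48* itself was at 4.66 in GFP-Deg, 3.88 in SS-GFP and 3.35 to 3.98 in the other arrays. The cofactor gene *UBX6* went the other way with 0.58.

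Genes for folding in the ER lumen were higher in SS-GFP. Of the 16 genes, 14 were higher in SS-GFP and 6 of them by more than 2-fold, where 1.31% of all genes compared were over 2-fold and 41.9% were higher, and the median difference was 0.61 (1.53-fold). For 12 of the 16 the SS-GFP level was the highest of the 7 arrays, as it was for 9.5% of all genes compared. Against GFP, the median difference was 1.12 in SS-GFP and 0.15 in GFP-Deg.

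The Hsp70 system of the lumen held 4 of the 6 genes over 2-fold. All 6 of its genes were higher in SS-GFP, with a median of 1.13 (2.18-fold), and all 6 were at their highest of 7 arrays there. *KAR2*, the major Hsp70 of the ER, was at 4.51 in SS-GFP and at 3.43 in GFP-Deg, with the others from 2.72 to 3.57, a 2.12-fold difference. *LHS1*, an Hsp70-related chaperone and exchange factor of Kar2, was at 1.82 in SS-GFP, 0.47 in GFP-Deg and 0.08 to 0.81 in the others (2.55-fold). In both genes the SS-GFP array stood apart and GFP-Deg lay within the range of the rest. *SIL1*, a further exchange factor, was 2.74-fold higher, and among the J-domain partners of Kar2 *JEM1* was 2.25-fold higher while *ERJ5* and *SCJ1* had differences of 0.53 and 0.44.

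Among the 10 genes of disulfide formation and proline isomerization, the difference was split. *MPD1*, a protein disulfide isomerase homologue, was at 0.22 in SS-GFP and -1.46 in GFP-Deg (3.19-fold), with the others from -1.72 to -0.89. *EUG1*, another homologue, was 2.63-fold higher. *ERO1*, the oxidase that passes oxidizing equivalents to these isomerases, was at 2.23 in SS-GFP and 1.36 in GFP-Deg, a difference of 0.87, with the others from 0.62 to 1.26. The *ERO1* level of GFP-Deg was the second highest of the 7 arrays, and against GFP the differences of *ERO1* were 1.61 in SS-GFP and 0.73 in GFP-Deg.

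*PDI1*, the essential protein disulfide isomerase, showed no such difference between these arrays. It was at 4.10 in SS-GFP and at 4.18 in GFP-Deg, and both were above the 2.66 to 3.80 of the other 5 arrays. Against GFP the differences of *PDI1* were 0.86 and 0.93. The prolyl isomerase gene *CPR4* also did not differ in favour of SS-GFP, with levels of 1.02 and 1.09. The median of the 10 genes was therefore low, at 0.14.

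**Figure D3:**
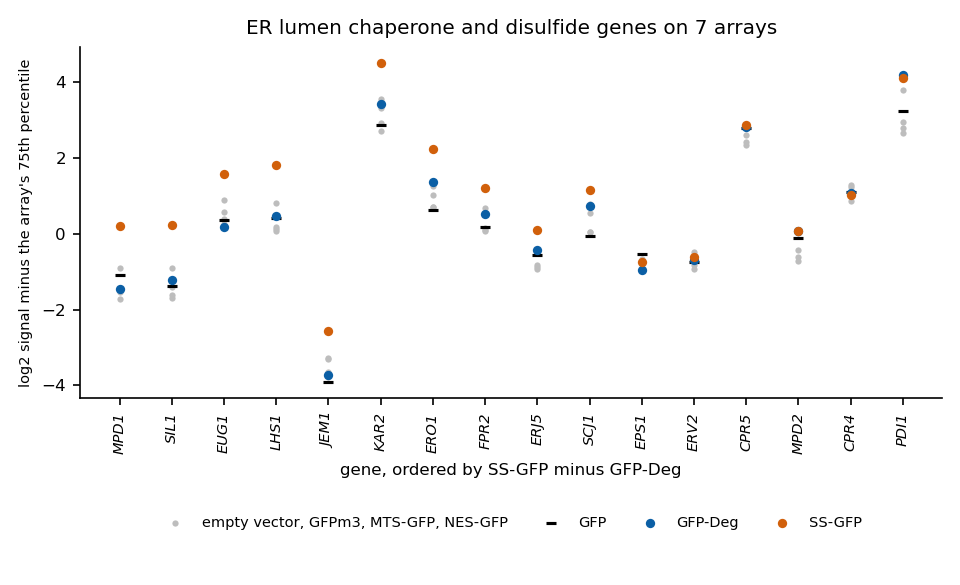
Levels (y axis, log2 relative to the 75th percentile of each array) of 16 genes for chaperones and disulfide enzymes of the ER lumen (x axis) on 7 arrays, 1 array per construct. The SS-GFP points (orange) are the highest for 12 genes, and for *PDI1* the points of both SS-GFP and GFP-Deg lie above the rest.

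The regulators of the unfolded protein response differed less than the folding genes. *HAC1* was at 2.09 in SS-GFP and 1.58 in GFP-Deg, a difference of 0.52, and the other 5 arrays ranged from 1.77 to 2.28, so that SS-GFP was within them and GFP-Deg was the lowest of 7. *IRE1*, *PTC2*, a phosphatase that acts on Ire1, and *TRL1*, the ligase that completes the splicing of *HAC1* mRNA, had differences of 0.06, -0.01 and -0.12. Splicing was not measured by these arrays.

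ER-associated degradation removes misfolded proteins from the ER and hands them to the proteasome. None of its 17 genes passed 2-fold, and their median was 0.10, with 11 higher in SS-GFP, where 41.9% of all genes were. *DER1*, a channel component, was at -0.54 in SS-GFP and -1.49 in GFP-Deg (1.94-fold), its highest of 7 arrays, and the ubiquitin ligase gene *HRD1* had 0.53. In the opposite direction, *SSM4*, the ubiquitin ligase of the nuclear envelope also called Doa10, was at 0.67 in SS-GFP and 1.58 in GFP-Deg, a difference of -0.91, and GFP-Deg was its highest of 7 arrays.

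Modification of secretory proteins differed gene by gene. The 27 genes of N-glycan assembly and transfer had a median of -0.17, with 0 over 2-fold, and the dolichol phosphate mannose synthase gene *DPM1* had 0.54. The 6 protein O-mannosyltransferase genes had a median of 0.23, led by *PMT2* (0.76) and *PMT1* (0.69). Of 23 genes of glycosylphosphatidylinositol (GPI) anchor synthesis with a median of 0.00, only *MCD4*, an ethanolamine phosphate transferase of the anchor, passed 2-fold. *MCD4* was at 0.90 in SS-GFP, -0.64 in GFP-Deg and -1.29 to -0.06 in the others (2.90-fold). *GWT1*, the inositol acyltransferase of the anchor, had a difference of 0.81.

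Genes for entry into the ER and traffic out of it had smaller differences. Among 17 translocon genes with a median of 0.27, *SEC62* had 0.73, *SEC72* had 0.59 and *SEC61*, the channel itself, had 0.37, while *GET3*, the ATPase for tail-anchored proteins, had -0.70. SS-GFP was the highest of 7 arrays for *SEC62*, *SEC72* and *SEC61*, and GFP-Deg for *GET3*. The 12 genes for the signal recognition particle and signal peptidase had a median of -0.06, as did all genes to 2 decimals. Of these 12, 8 were higher in GFP-Deg, where 58.1% of all genes were. The 22 COPII and export receptor genes had 0.13, with *ERV25* at 0.60, and the 12 COPI and retrieval genes had 0.19, with the HDEL receptor gene *ERD2* at 0.56 and *ARF2* at 0.82. None of the genes of these 4 lists passed 2-fold.

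Lipid genes were led by 1 member. *INO1*, inositol phosphate synthase, was at -1.96 in SS-GFP and -4.26 in GFP-Deg (4.92-fold), but MTS-GFP was higher at -0.50 and the empty vector was at -2.38. The other genes of phospholipid synthesis included *SCS3*, an ER protein of lipid homeostasis, at 0.99 and *CHO1*, phosphatidylserine synthase, at -0.84, and the median of the 20 genes was -0.14. Of 23 ergosterol genes, 18 were higher in SS-GFP, where 41.9% of all genes were, with a median of 0.28. *ERG3*, a sterol desaturase, was 2.47-fold higher, although at 3.44 it was below the 3.88 to 4.39 of the 4 arrays on the second slide.

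**Figure D4:**
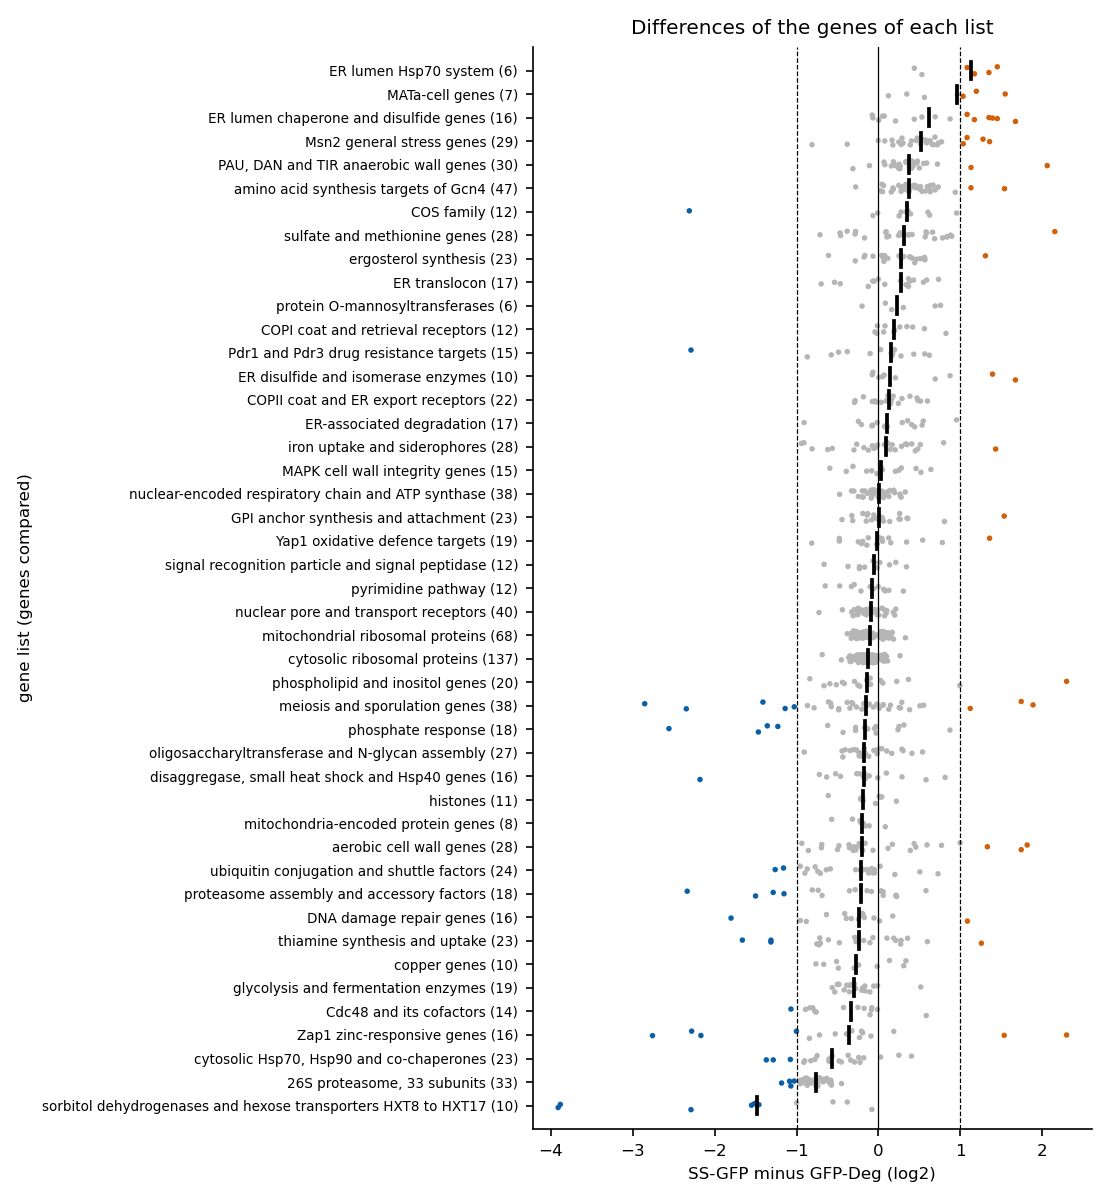
Differences (x axis, log2) of the genes of lists with at least 6 genes compared (y axis, number of genes in parentheses). The separate classes of proteasome subunits are left out as rows of their own. Points are coloured beyond 2-fold (dashed lines), black bars stand at the medians, and vertical scatter within a row is for legibility only. The ER lumen Hsp70 system stands highest at 1.13, the 33 proteasome subunits have a median of -0.77, and the sorbitol and hexose transporter genes stand lowest at -1.49.

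Most cytosolic chaperone genes were higher in GFP-Deg than in SS-GFP. Of 23 genes for Hsp70, Hsp90 and their partners, 20 were higher in GFP-Deg, the median was -0.57 (1.48-fold), and 3 passed 2-fold. Over all genes, 58.1% were higher in GFP-Deg and 2.34% passed 2-fold. GFP-Deg was the highest of 7 arrays for 8 of the 23 and within the other 5 arrays for 14, and SS-GFP was the lowest for 7. Among all 6033 genes compared, GFP-Deg was the highest for 1243 and within the other 5 arrays for 3410. SS-GFP was the lowest for 966 of them. The median level of the 23 genes was 1.24 in GFP-Deg and 0.68 in SS-GFP. It was 2.55 in GFPm3, 1.26 in MTS-GFP, 1.09 in the empty vector, 0.80 in NES-GFP and 0.75 in GFP. *HSP82*, the inducible Hsp90, was at 2.98 in GFP-Deg and 1.61 in SS-GFP, which were the highest and the lowest of the 7 arrays (2.58-fold). *SSA1* and *SSA2*, closely related cytosolic Hsp70 genes whose probes may share signal, were 2.44-fold and 2.11-fold higher in GFP-Deg. The 16 disaggregase, small heat shock and Hsp40 genes had a median of only -0.17, and among them *BTN2*, a sorting factor for misfolded proteins, was at -1.07 in SS-GFP and 4.53-fold higher in GFP-Deg. For *BTN2*, GFPm3 was higher still than GFP-Deg, and SS-GFP was the lowest of 7.

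The 3 largest differences toward GFP-Deg were those of an uncharacterized gene and of a pair of sorbitol dehydrogenase genes. *YOL131W*, the former, was at -3.52 in GFP-Deg and -7.62 in SS-GFP, with the others from -7.97 to -6.83, a 17.1-fold difference. *SOR1* and *SOR2*, nearly identical sorbitol dehydrogenase genes that these probes may not separate, were at -3.28 and -3.37 in GFP-Deg, -7.16 and -7.28 in SS-GFP, and between -7.46 and -6.17 in all other arrays. Their differences were 14.8-fold and 15.0-fold, and in *YOL131W*, *SOR1* and *SOR2* GFP-Deg stood 3.31, 2.88 and 2.97 above GFP, the next highest array, on the log2 scale. Their mean processed signals in SS-GFP were only 22.3, 30.2 and 28.0. The normexp background correction adds an offset of 50 to every spot, which by itself shrinks the folds of such dim signals. With it, *YOL131W*, *SOR1* and *SOR2* were 5.11-fold, 5.60-fold and 5.17-fold higher in GFP-Deg.

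The transporter genes near and like them had smaller differences. Of the 12 genes of the list, which joins *SOR1*, *SOR2* and *HXT8* to *HXT17*, 10 were compared, all 10 were higher in GFP-Deg and 6 passed 2-fold, with a median of -1.49. Over all genes compared, 58.1% were higher in GFP-Deg and 2.34% passed 2-fold in that direction. *HXT9* was at -0.54 in GFP-Deg, -2.83 in SS-GFP and -2.84 to -2.18 in the others (4.89-fold). *HXT17*, *HXT16* and *HXT15*, which resemble each other, had differences of -1.55, -1.51 and -1.46, but the differences from GFP were only 0.30 to 0.35 in GFP-Deg and were -1.21 to -1.15 in SS-GFP. With normexp background correction these 3 genes were within 2-fold, at -0.93, -0.68 and -0.61. *HXT15* lies next to *SOR2* and *HXT16* next to *SOR1*. *HXT8* and *HXT11* had -0.08 and -0.38.

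**Figure D5:**
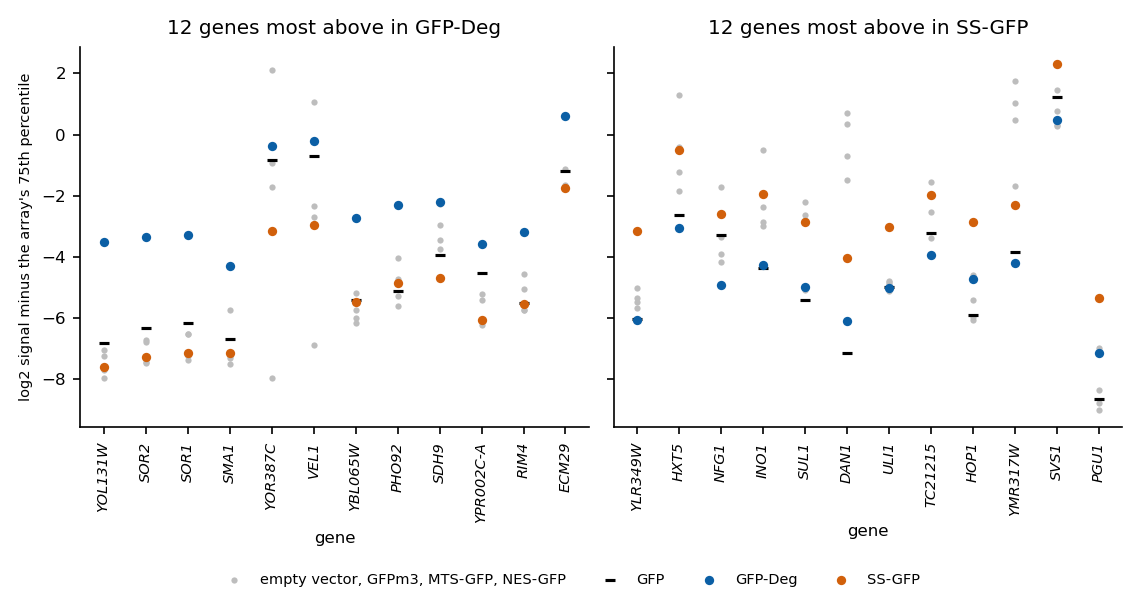
Levels (y axis, log2 relative to the 75th percentile of each array) on 7 arrays of the 12 genes with the largest differences toward GFP-Deg (left) and toward SS-GFP (right), 1 array per construct. GFP-Deg (blue) is the highest of 7 for 10 of the genes on the left, all but *YOR387C* and *VEL1*, and SS-GFP (orange) is the highest for *YLR349W*, *ULI1*, *HOP1*, *SVS1* and *PGU1* on the right.

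Other leading genes toward GFP-Deg had various roles. *SMA1* and *RIM4*, of spore membrane assembly and meiotic regulation, were 7.23-fold and 5.08-fold higher in GFP-Deg, as was *PHO92*, an RNA-binding protein that acts in meiosis, at 5.89-fold, and GFP-Deg was the highest of 7 for each. *SDH9*, a paralogue of a succinate dehydrogenase subunit, was 5.64-fold higher, at -2.19 against -4.69 in SS-GFP, which was the lowest of 7. *YBL065W* and *YPR002C-A*, open reading frames of unknown role, were 6.65-fold and 5.57-fold higher. Over the 38 meiosis and sporulation genes compared of 48, however, the median was -0.15, with 5 over 2-fold in GFP-Deg and 3 in SS-GFP, where 2.34% and 1.31% of all genes were, and the median was 0.14 with quantile normalization and 0.10 with loess. With normexp background correction *SMA1*, *RIM4*, *YBL065W* and *YPR002C-A* were 3.03-fold, 3.34-fold, 4.19-fold and 3.33-fold higher in GFP-Deg.

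The zinc-responsive genes varied widely over all arrays. *VEL1* and *YOR387C*, closely related genes that hybridization may not separate and of which the zinc list holds only *VEL1*, were 6.77-fold and 6.94-fold higher in GFP-Deg, at -0.21 and -0.37 against -2.97 and -3.16. In the other arrays these genes ranged from -6.89 to 1.05 and from -7.95 to 2.11, from GFPm3 at the bottom to the empty vector at the top. *ZPS1*, a zinc-regulated cell surface protein, and *ADH4*, an alcohol dehydrogenase, were 4.49-fold and 4.86-fold higher in GFP-Deg. Of the 16 zinc-responsive genes, 13 were higher in GFP-Deg with a median of -0.36, and the 2 over 2-fold in SS-GFP, *INO1* and *MCD4*, belong to the lipid and GPI lists as well. Over all genes compared, 58.1% were higher in GFP-Deg and 1.31% were over 2-fold in SS-GFP. *ZRT1*, the high-affinity zinc importer, was just past 2-fold, at 4.24 in SS-GFP and 5.24 in GFP-Deg.

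Some thiamine and phosphate genes were higher in GFP-Deg. *PHO3*, a thiamine-repressed acid phosphatase, was 3.16-fold higher in GFP-Deg and the transporter genes *THI7* and *THI73* were 2.48-fold higher each, while *THI4*, of thiazole synthesis, was 2.39-fold higher in SS-GFP. For *PHO3*, *THI7* and *THI73* the empty vector stood above both arrays. The median of the 23 thiamine genes was -0.24 and that of 18 phosphate genes was -0.17. Of the 23 thiamine genes, 15 were higher in GFP-Deg, near the 58.1% of all genes, with 3 over 2-fold there and 1 in SS-GFP. Of the 18 phosphate genes, 4 were over 2-fold in GFP-Deg and 0 in SS-GFP, where 2.34% and 1.31% of all genes were. They included *PHO92*, 5.89-fold higher, and *PHM6*, 2.76-fold higher, which was within 2-fold with normexp background correction. The acid phosphatase genes *PHO11* and *PHO12*, which are nearly identical, were 2.34-fold and 2.56-fold higher in GFP-Deg.

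The largest differences toward SS-GFP had little function in common. *YLR349W*, a dubious open reading frame, was at -3.16 in SS-GFP and -6.08 in GFP-Deg, with the others from -6.03 to -5.03 (7.54-fold, but 4.30-fold with normexp background correction and 11.4-fold with quantile normalization). *HXT5*, a hexose transporter made at slow growth, was at -0.49 against -3.07 (5.95-fold), but MTS-GFP stood higher at 1.31 and GFP was at -2.63. *NFG1*, a negative regulator of filamentous growth, was 4.97-fold higher in SS-GFP and at its lowest of 7 arrays in GFP-Deg, and *AFB1*, a gene for a wall-bound a-factor barrier protein next to it, had 0.99. *SUL1*, a sulfate permease, was 4.45-fold higher, at a level of -2.85 that was close to those of GFPm3, MTS-GFP and NES-GFP (-2.80 to -2.19).

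Some further genes of this end were highest of all arrays in SS-GFP, among them *ULI1*, *HOP1*, *SVS1* and *PGU1*. *ULI1*, a gene known for its response to the unfolded protein response, was at -3.02 against -5.02 in GFP-Deg and -5.13 to -4.78 in the others (3.99-fold). *HOP1*, a meiotic chromosome axis protein, was at -2.85 against -4.74 (3.70-fold) and its neighbour *SPO22* was 2.18-fold higher. For *SPO22*, however, GFPm3, MTS-GFP and NES-GFP stood above SS-GFP. *SVS1*, a wall protein of vanadate resistance, was 3.52-fold higher, and *PGU1*, a polygalacturonase, 3.49-fold higher, but 1.71-fold with normexp and 5.99-fold with quantile normalization. By contrast *DAN1*, an anaerobic wall mannoprotein, was 4.17-fold higher in SS-GFP than in GFP-Deg but at -4.03 lay far below the -1.49 to 0.71 of the 4 arrays on the second slide, and the fold was 2.67 with normexp and 6.30 with quantile normalization. *YMR317W*, an uncharacterized open reading frame, was 3.66-fold higher with the same order of slides. *TC21215*, a name without a gene in the reference table, was 3.91-fold higher, but MTS-GFP stood above SS-GFP for it.

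General stress genes, driven by the transcription factor Msn2, were higher in SS-GFP. Of 29, 26 were higher there, with a median of 0.52 (1.43-fold), and 4 passed 2-fold, namely *CTT1*, the cytosolic catalase (2.56-fold), *PGM2*, phosphoglucomutase (2.42-fold), *GPH1*, glycogen phosphorylase (2.12-fold), and *GSY1*, glycogen synthase (2.05-fold). Over all genes compared, 41.9% were higher in SS-GFP and 1.31% passed 2-fold in that direction. For this list the distance from GFP lay on the GFP-Deg array. Against GFP the median was -0.07 in SS-GFP and -0.63 in GFP-Deg, and the SS-GFP level lay within the range of the other 5 arrays for 28 of 29 genes. Over all genes compared, SS-GFP lay within that range for 3985 of 6033.

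The same held for the genes of haploid a cells. All 7 were higher in SS-GFP, where 41.9% of all genes were, with a median of 0.96. *MFA1*, a gene for the a-factor pheromone, was at 3.07 in SS-GFP and 1.52 in GFP-Deg (2.92-fold). *AGA2*, an agglutinin subunit, and *BAR1*, the protease that cuts alpha-factor, were 2.29-fold and 2.05-fold higher. GFP was at 2.77 for *MFA1*, near SS-GFP, while the 4 arrays of the second slide were at 1.41 to 1.92, near GFP-Deg, and the median against GFP was 0.01 in SS-GFP and -0.95 in GFP-Deg. Of the genes of alpha cells, *MF(ALPHA)1* was not well above background in SS-GFP, and *STE3*, *SAG1* and *MF(ALPHA)2* had differences of 0.22, -0.16 and -0.38.

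Amino acid synthesis genes, targets of the transcription factor Gcn4, showed a small difference in nearly every member. Of 47 genes, 46 were higher in SS-GFP, where 41.9% of all genes were, with a median of 0.38 (1.30-fold) and a single exception, *HOM6*, at -0.28. Only *ARG3* and *ARG1*, of arginine synthesis, passed 2-fold, at 2.91-fold and 2.19-fold. *ARG3* was at 0.61 in SS-GFP, within the -0.35 to 1.63 of the other 5 arrays, and at -0.93 in GFP-Deg, its lowest of 7. For *ARG1*, SS-GFP was the highest of 7 and GFP-Deg the lowest. *GCN4* mRNA, whose product is controlled at translation, differed by 0.06. Sulfate and methionine genes followed with a median of 0.31 and 21 of 28 higher in SS-GFP.

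Anaerobic wall genes of the *PAU*, *DAN* and *TIR* families, many nearly identical, were higher in SS-GFP for 28 of 30, with a median of 0.38. GFP-Deg was the lowest of the 7 arrays for 25 of them. Over all genes compared, 41.9% were higher in SS-GFP and GFP-Deg was the lowest of 7 for 16.8%. *DAN4*, next to *DAN1*, was 2.19-fold higher. Of 28 wall genes of aerobic cells the median was -0.20, and *GSC2*, a glucan synthase subunit gene, was 3.35-fold higher in SS-GFP, at 2.82 against 1.08, where GFP-Deg was the lowest of 7 and MTS-GFP the highest at 3.33. The *COS* genes, a subtelomeric family of membrane proteins, had a median of 0.35 but *COS12* was 4.95-fold higher in GFP-Deg.

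Housekeeping groups differed little. The 137 cytosolic ribosomal protein genes had a median of -0.12 with none over 2-fold, the 68 mitochondrial ribosomal protein genes -0.10, the 38 respiratory chain genes 0.01, the 11 histone genes -0.19 and the 40 nuclear pore and transport genes -0.09. The 8 protein genes of the mitochondrial genome had -0.20. Glycolytic and fermentation genes were slightly higher in GFP-Deg, at -0.29 with 18 of 19 in that direction, where 58.1% of all genes lay. Among these, *TDH3*, whose promoter drove GFP-Deg, had -0.42 and *CDC19*, the pyruvate kinase gene whose promoter drove SS-GFP, had -0.17. The medians of the nuclear pore and mitochondrial ribosomal protein lists were above 0 without scaling.

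The plasmid markers gave a further view of the cells. *URA3* was at 4.43 in SS-GFP and 4.90 in GFP-Deg and *LEU2* at 1.89 and 1.62, differences of -0.47 and 0.28 in opposite directions. Both arrays were below GFP, at 5.84 and 2.81, and below the empty vector, at 6.75 and 3.27. Of the genes deleted in the host strain, *HIS3* and *MET17* were not well above background on either array. The part that plasmid copy number played in the differences of other genes was not tested.

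Neighbouring genes were examined for the leading differences, by their order in the reference gene table. The gene next to *RPT6*, *ALG13*, a subunit of the transferase that adds the second sugar of the N-glycan precursor, had a difference of -0.91, close to the -0.94 of *RPT6*, and was at its highest of 7 arrays in GFP-Deg. This single gene had the lowest value of the 27 N-glycan genes. *YOR289W*, next to *MPD1*, had 1.01, whereas *RRP36*, its other neighbour, had -0.86. *TAD2*, a tRNA deaminase gene with a systematic name adjacent to that of *KAR2*, was 2.27-fold higher in SS-GFP. The neighbours of *ECM29*, *BLM10*, *DOC1*, *LHS1* and *ERO1* in the reference gene table had differences between -0.46 and 0.15. *YGL239C*, not among these but with a systematic name next to that of *DOC1*, was 2.20-fold higher in GFP-Deg. Its levels were low, at -6.59 in GFP-Deg and -7.72 in SS-GFP, and GFP-Deg was its highest of 7 arrays.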

How the data were processed

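Total RNA of yeast cells in log phase, extracted with hot phenol, was labelled with Cy3 and hybridized to one-colour Agilent arrays, 1 array per construct. The deposited values were spot intensities written by the authors' Feature Extraction 10.10.1.1 as background-corrected processed signals, without normalization between arrays, and the deposited series value table equalled them for all 45209 spots of each array. Control spots and outlier spots were left out, log2 of the processed signal minus the 75th percentile of its array was averaged over the 7 spots of a probe and then per systematic name, and names well above background on both arrays were compared. For names well above background on GFP-Deg only, a bound on the fold was computed. A table of RefSeq genes (assembly R64) served for names and neighbours only and recognised 5737 of the 6225 names by locus tag.

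The standard error of a difference covered the spots of both arrays only. With 1 array per construct no test was run, and the number of arrays limits the precision. A difference over 2-fold was counted as past the threshold. The genes named were the 12 most different in each direction, those that the study names for these constructs, the members of each list over 2-fold (at most 4) with the most different members of the proteasome and ER lists, the plasmid markers, host deletions, promoter source genes and mating-type genes, and neighbours of these. Other members were named by role after their values were seen. The members and the 54 lists were chosen with earlier results of these data known. Alternatives were scaling by the median, by quantile, by loess or not at all, normexp background correction, the median of the spots of a probe, outlier spots kept, omission of the background filter or of the 1509 genes of lowest level, and thresholds of 1.5-fold and 3-fold. The normexp correction was run with an offset of 50. Python 3.11.15, pandas 2.3.3, numpy 2.4.6, matplotlib 3.10.9, R 4.3.3 and limma 3.58.1 were used, and the counting of differences was tested on simulated data. Promoter sequences and GFP transcripts were not analysed here.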

Additional observations from a re-analysis of the deposited data

How the results depend on the processing

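No paired analysis was possible because each construct had 1 array and no replicates. Without the 1509 genes of lowest level, 116 genes in place of 220 differed by more than 2-fold, 61 in place of 141 of them toward GFP-Deg. With normexp background correction, whose offset of 50 by itself shrinks the folds of dim genes, 81 genes were higher in GFP-Deg and 69 in SS-GFP. At 1.5-fold the counts were 823 in all, 303 toward SS-GFP and 520 toward GFP-Deg, and at 3-fold they were 51, 17 and 34. Without scaling, the median of all genes moved by 0.12, the proteasome median became -0.65 and the ER lumen median 0.73, and relative to the median of all genes neither list moved, since scaling adds the same constant to every gene. The share of the genes over 2-fold that were higher in SS-GFP was 35.9% and became 47.6% with quantile normalization, 50.9% without scaling, 46.0% with normexp, 49.0% with loess and 47.4% without the 1509 genes of lowest level. Over the alternatives the proteasome median ranged from -0.77 to -0.65, the ER lumen median from 0.53 to 0.73 and the sorbitol and hexose transporter median from -2.29 to -0.73. The -2.29, without the 1509 genes of lowest level, was the value of *HXT9* alone, because the other compared genes of that list were left out. Of 78 named genes over 2-fold, 51 could be run in all 9 settings that keep the threshold, of which 43 stayed over 2-fold, and 27 in 8 settings, of which 19 did, with 0 changes of sign. The fold of 13 of them moved by more than 1.5 times, with normexp or quantile normalization only. *HXT15*, *HXT16* and *HXT17* had -0.61, -0.68 and -0.93 with normexp, and 10 list medians near 0 changed sign, in 4 settings for Yap1 targets, in 2 each for meiosis and alpha-cell genes, and in 1 each for GPI anchor, signal recognition particle, iron, pyrimidine, nuclear pore, plasmid marker and mitochondrial ribosomal protein genes. The absence of replicate arrays limited all comparisons.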

Other observations

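Some genes tied to the response to mating pheromone were over 2-fold different. They were in no list and were picked after their values were seen, so they say nothing of such genes as a group. *FUS1*, a cell fusion protein, was at -0.93 in SS-GFP, -2.06 in GFP-Deg and -1.39 in GFP. *SST2*, which desensitizes cells to pheromone, was at -1.49, -2.73 and -1.73, *AGA1*, the anchor of the a-agglutinin, at -0.45, -1.68 and -0.63, and *AFR1*, a regulator of mating projections, at -0.76, -2.27 and -0.75. Of the pheromone-regulated membrane protein genes, *PRM4* and *PRM5* had differences of 1.31 and 1.11, whereas *PRM7* had -1.30 and was thus higher in GFP-Deg.

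Most genes compared, 4993 of 6033, belonged to no list. Of the genes over 2-fold, 50 of the 79 higher in SS-GFP and 102 of the 141 higher in GFP-Deg belonged to no list. Among the latter were *CHA1*, the serine deaminase (-1.62), *MNN1*, a mannosyltransferase of the Golgi (-1.34), *CDS1*, the CDP-diacylglycerol synthase (-1.15), *PEX30*, a peroxin of the ER membrane (-1.15), and *RFA1*, a subunit of replication protein A (at 0.47 in GFP-Deg and -0.53 in SS-GFP). *RTA1*, a membrane protein of drug resistance, had 1.68. These genes were also chosen after their values were seen.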
